A study of Mus musculus with 2 samples.

Results

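Rab GTPases are small membrane-bound switches that give each vesicle and organelle its identity. In the GTP-bound state a Rab recruits effectors such as tethers, motors and lipid kinases. Exchange factors switch it on, GTPase-activating proteins switch it off, and GDI proteins carry the prenylated, inactive form back through the cytosol. In dendritic cells these proteins order the traffic of phagosomes, antigen-loading compartments, Toll-like receptors and cytokine-bearing vesicles. Rab genes were taken as every gene whose symbol is Rab followed by a number and at most 1 further letter or letter and digit, on probe sets that the platform annotation assigned to 1 gene only. This gave 59 genes on 132 probe sets, out of 18193 genes so named, and left out Rab effectors and exchange factors.

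The samples were bone-marrow-derived dendritic cells of C57BL/6J mice, 1 sample from wild-type mice and 1 from miR-155-/- mice, each hybridised to 1 Affymetrix expression array. Marrow cells had been cultured for 7 days with 20 ng/ml of GM-CSF, a myeloid growth factor, and both genotypes then received 10 ng/ml of lipopolysaccharide (LPS), the bacterial ligand of Toll-like receptor 4. The growth protocol calls the marrow cells macrophages, where the other labels call them dendritic cells. No untreated cells and no replicates were analysed, and the labels do not give the age of the mice, how many were pooled or how long LPS was left on. The deposited values are linear probe set intensities with no stated scaling, and their medians were 58.4 for wild type and 78.3 for knockout. They were therefore quantile normalized on the log2 scale, and every difference below is knockout minus wild type relative to the bulk of all genes. Normalized signals under the median of all values, 67.6, were set to that floor, which was chosen for this report and says nothing of whether a transcript was detected. A gene counted as measured if its brightest probe set lay above the floor on at least 1 array, and that probe set gave its value.

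With 1 array per genotype no test between genotypes was possible, so differences describe these arrays and are read by size. The only error that could be measured was the disagreement between probe sets of 1 gene, with an SD of 0.29 on the log2 scale over 4410 genes and of 0.27 over the 24 Rab genes with at least 2 such probe sets. Differences between animals or between cultures are not part of this SD. Mir155hg, from which miR-155 is processed, was read first as a check of the labels: 1136 in the wild-type sample and 159 in the sample labelled knockout, 7.13-fold lower. Of the dendritic cell markers, Itgax (4290.5 and 5331), Cd74 (11584 and 11156) and H2-Ab1 (4407 and 3896) were well above the floor in wild type and knockout, whereas Flt3 lay below it in wild type. Zbtb46 (188 and 140) and Cd209a (90.1 and 119) were dim. Irf8 (4551 and 2874, 1.58-fold lower) and Ccr7 (6287 and 4304, 1.46-fold lower) were bright. These had the largest differences among the dendritic cell markers above the floor on both arrays. Of the 9 dendritic cell markers measured, 6 were lower and 3 higher. Macrophage markers ranged from bright, as Adgre1 (7458 and 8568) was, to dim. Mertk (318 and 558, 1.75-fold higher) and Mrc1 (138 and 288, 2.08-fold higher) had the largest differences among the macrophage markers. Of the 7 macrophage markers measured 5 were higher, and the 2 lower were Cd14 (10690 and 7911) and Fcgr1 (3008 and 2546). In such bulk samples fewer cells of a type and less RNA per cell cannot be told apart.

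The microRNA missing from the knockout is shown with bases 2 to 8, the seed that pairs with target transcripts, in capitals (RefSeq, GRCm38.p6, chr16:84714143-84714165, plus strand). Whether Rab transcripts carry matches to this seed was not analysed here.
mmu-miR-155-5p: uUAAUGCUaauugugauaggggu

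Across the Rab family most transcripts were at nearly the same relative level in both genotypes, and a single gene, Rab20, stood at a far lower level in the knockout among those above the floor on both arrays. Of the 59 genes 46 were measured, 45 of them on both arrays. There were 23 higher and 23 lower in the knockout, with a median difference of 0.01, equal to the 0.01 of all 11878 measured genes. The middle 50% of Rab genes lay between -0.22 and 0.15, against -0.18 and 0.20 for all genes. Only Rab20 was at least 2-fold lower (2.17% of measured Rab genes, against a background of 0.615% of all measured genes) and only Rab15 at least 2-fold higher (2.17% against 0.572%). At 1.5-fold the lower set was again Rab20 alone (2.17% against 4.1%), and Rab34 joined Rab15 among the higher (4.35% against 4.57%). Past 1 probe set SD there were 11 lower Rab genes (23.9% against 15.7%) and 7 higher (15.2% against 17%), and the other 28 stayed within it. The higher shares at 1.5-fold and past 1 probe set SD were close to the background. The 2-fold shares and the lower 1.5-fold share each rest on 1 gene. Rab15 was above the floor in the knockout only, and of the 750 such genes among all genes 2.67% were at least 2-fold higher. Past 1 probe set SD the lower share was above the background (23.9% against 15.7%), and with 1 array per genotype this was not tested.

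The direction of a typical Rab gene depended on how the arrays were scaled. In the deposited values 46 of 47 measured Rab genes were higher in the knockout and only Rab20 was lower, where the median of all genes was itself higher by 0.54. Centring on the median gave 31 higher and 15 lower Rab genes, and scaling on hybridisation controls 33 and 13. Under the 8 alternatives tried, the Rab median minus the median of all genes lay between -0.04 and 0.03. "Lower" and "higher" below therefore mean relative to the bulk of genes, and for each Rab gene described as lower, other than Rab20, the deposited signal of the probe set used was higher in the knockout.

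**Figure D1:**
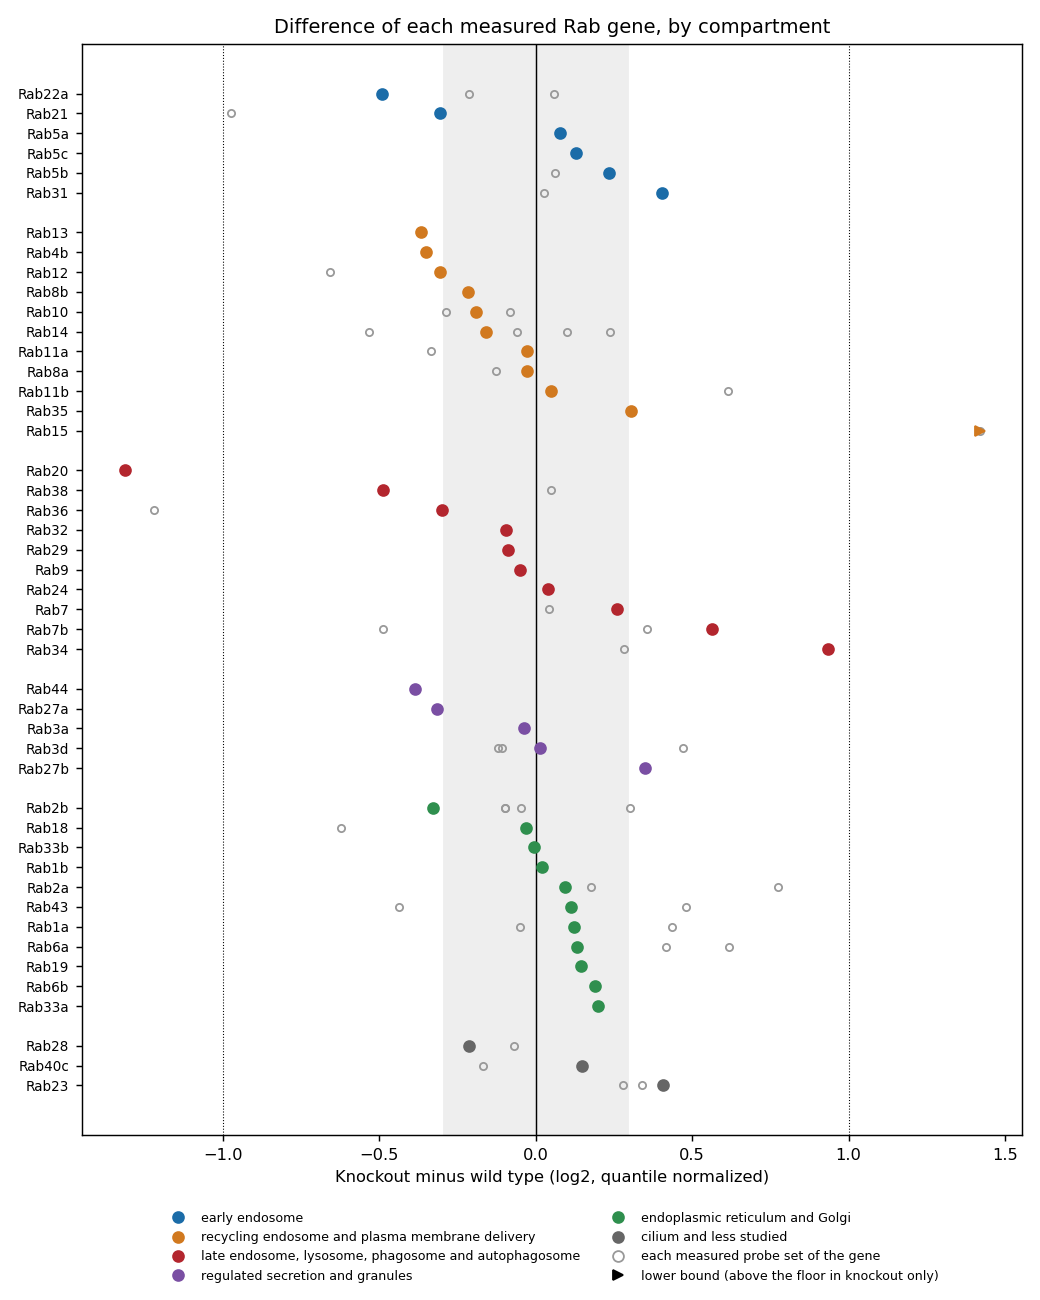
Knockout minus wild type (log2, quantile normalized) for the 46 measured Rab genes, grouped by the compartment they are known for; filled points are the probe set used, open circles every other measured probe set, the triangle a lower bound, the grey band 1 probe set SD (0.29) and the dotted lines 2-fold. Rab20 lies at -1.31 and Rab15 at 1.42 or more, Rab34 follows at 0.93, and 28 genes fall inside the band; without scaling every filled point but Rab20 would lie right of 0.

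The spread differed with signal. When all measured genes were split into 3 equal classes by mean signal, the brightest class held 24 Rab genes, with a median absolute difference of 0.12 (0.15 for all genes of that class). The 16 Rab genes of the middle class had a median absolute difference of 0.31 (0.20 for all genes), and the 6 of the dimmest class also 0.31 (0.26 for all genes). Both genes on the higher side past 1.5-fold, Rab15 and Rab34, were in the dimmest class, where 7.65% of genes were at least 1.5-fold higher. Rab20 was in the middle class, where 0.657% of genes were at least 2-fold lower.

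**Figure D2:**
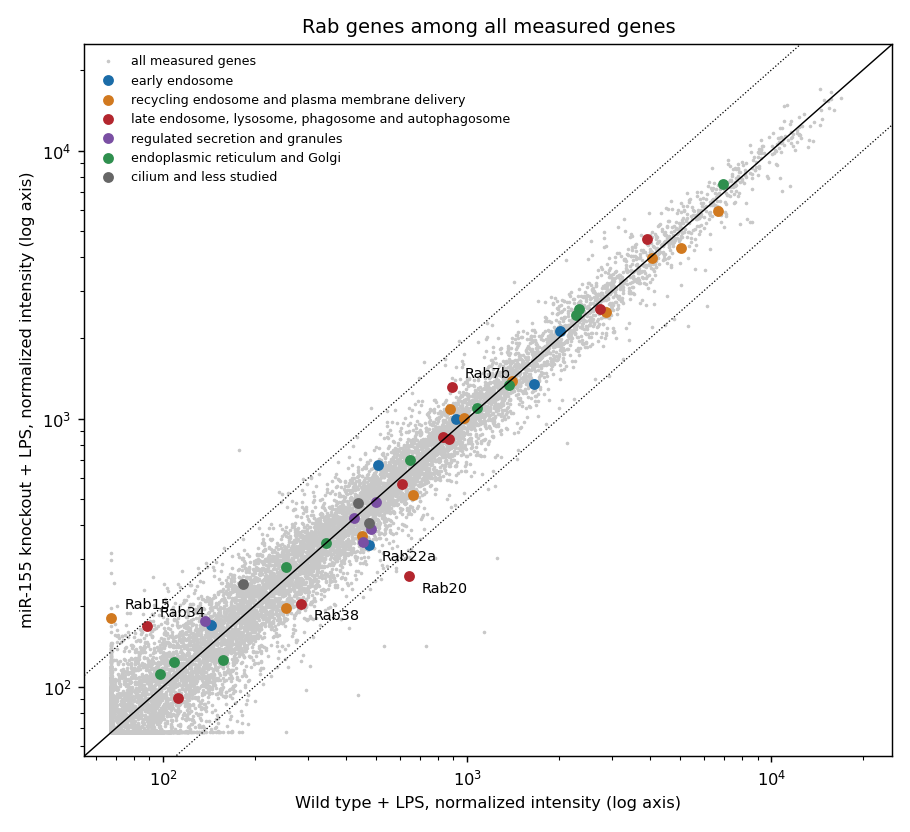
Normalized intensity in wild-type (horizontal) and knockout cells (vertical), both log axes, for all 11878 measured genes (grey) and the 46 measured Rab genes, coloured by compartment; the solid line marks equality and the dotted lines 2-fold. Most Rab genes hug the line, Rab20 (641 against 258) lies below the 2-fold line, and Rab15 and Rab34 sit at the dim end.

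Rabs of late endosomes, lysosomes, phagosomes and autophagosomes ranged from -1.31 to 0.93, both ends measured above the floor on both arrays. Of 12 such genes 10 were measured, 4 higher and 6 lower, with a median of -0.07. Rab20, which is found on endosomes and on maturing phagosomes of macrophages, had a normalized signal of 641 in the wild type against 258 in the knockout, 2.49-fold lower. As deposited, its signals were 519 and 314, a difference of -0.73. It was thus lower in the knockout even before scaling, when only 7.14% of genes were. With the floor in place 15 of all measured genes, Rab20 included, had a difference as low or lower (0.126%), and without scaling 34 (0.282%). Without the floor, where dim genes spread further, there were 143 (1.2%). Rab20 had 1 probe set, so no second one could check it.

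The other phagosomal and lysosomal members lay on both sides of 0. Rab34, which links lysosomes and phagosomes to microtubule transport and serves in cilium formation, had signals of 88.3 and 169 in wild type and knockout (1.91-fold higher). Its second probe set was also higher, by 0.28 (102 and 123). Both wild-type signals lay close to the floor of 67.6. Rab7b, a late endosomal and lysosomal Rab reported in mouse macrophages to promote the degradation of Toll-like receptor 4, had signals of 891 and 1316 (1.48-fold higher), just inside the 1.5-fold limit. A further Rab7b probe set was higher by 0.36 (539 and 689), and a dim one was lower (94.8 in wild type, at or below the floor in the knockout). Rab7, which drives fusion with lysosomes, was higher by 0.26 (3905 and 4681), with 2 of 2 probe sets higher.

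Rab38, best known for delivering cargo to melanosomes, was 1.40-fold lower (285 and 203) at a probe set whose name ends in _x_at, a type that can match several transcripts. Its other probe set differed by 0.05 (163 and 168), so the lower value rested on 1 of 2 probe sets. Its close relative Rab32, which acts on lysosome-related organelles, had a difference of -0.09 (2728 and 2556). Rab36, a relative of Rab34, was lower by 0.30 on the log2 scale (112 and 90.7), and its second probe set read 157 in wild type and was at or below the floor in the knockout, at least 2.33-fold lower. That second probe set passed the filter through the wild-type array alone, so it could only be lower. Rab29 (a partner of the kinase LRRK2 in human cells), Rab9 (late endosome to Golgi return) and Rab24 (autophagy) had differences of -0.09, -0.05 and 0.04, all inside the probe set SD. Rab39 and Rab9b were not measured.

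The promoter windows of the 2 phagosomal genes with the largest differences are shown because they are the Rab genes that differed most in opposite directions among those above the floor on both arrays; they were chosen after the values were seen. Each runs from 250 bases before to 50 after a transcript start, is written in the direction of transcription and comes from RefSeq (GRCm38.p6): Rab20 at chr8:11478591-11478890, minus strand, and the more upstream of 2 Rab34 starts at chr11:78188177-78188476, plus strand. Capitals mark matches on either strand to core letters of NF-kB (GGG and CC with any 5 bases between), AP-1 (TGANTCA) or PU.1 (GAGGAA) motifs.
Rab20: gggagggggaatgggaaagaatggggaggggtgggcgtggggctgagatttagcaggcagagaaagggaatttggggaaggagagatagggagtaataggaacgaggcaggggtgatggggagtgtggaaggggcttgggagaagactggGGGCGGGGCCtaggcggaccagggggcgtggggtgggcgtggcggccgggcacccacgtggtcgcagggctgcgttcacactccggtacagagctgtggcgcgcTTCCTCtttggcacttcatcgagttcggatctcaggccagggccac
Rab34: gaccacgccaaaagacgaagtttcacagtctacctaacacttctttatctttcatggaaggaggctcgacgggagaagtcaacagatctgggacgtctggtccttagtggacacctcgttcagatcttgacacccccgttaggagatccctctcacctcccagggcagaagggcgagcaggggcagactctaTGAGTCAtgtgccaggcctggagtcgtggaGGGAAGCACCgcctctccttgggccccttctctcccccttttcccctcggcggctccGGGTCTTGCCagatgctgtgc

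In the Rab20 window the NF-kB letters occurred once, overlapping a GC box (GGGCGG), and the PU.1 letters once. The Rab34 window held the AP-1 letters once and the NF-kB letters at 2 positions. The NF-kB letters are loose: 50.8% of all 32851 promoter windows hold them, and 68.3% of the 60 windows of 48 Rab genes. The GC box letters, which some of these Rab matches overlap, were in 35.7% of all windows and likewise in 68.3% of Rab windows. Whether the 2 shares are linked was not tested. The AP-1 letters were in 7.81% of all windows and in 5.0% of Rab windows (those of Rab15, Rab34 and Rab39b), and the PU.1 letters in 28.3% and 18.3%. The letters of interferon response elements (GAAA, any 2 bases, GAAA) were in 3.44% of all windows and among Rab genes in Rab19 only. A match describes the letters and does not show binding.

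Of the 14 recycling and surface-delivery Rabs 11 were measured, 3 higher (Rab15, Rab35 and Rab11b) and 8 lower, with a median of -0.16. Without _x_at and _s_at probe sets that median was -0.03. Rab15, an endosomal Rab known mainly from neural cells, was below the floor in the wild type and stood at 181 in the knockout, at least 2.67-fold higher. Its deposited signals were 31.3 and 218, and it had 1 probe set. Since it passed the filter through the knockout array alone, it could only be higher. Rab13, which carries cargo to cell junctions, had the lowest difference of the compartment (254 and 197, 1.29-fold lower).

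Rab4b, a fast-recycling Rab, was lower by 0.35 on the log2 scale (662 and 520) and Rab12, which sends transferrin receptors to lysosomes, by 0.31 (452 and 366). The second Rab12 probe set read 107 in wild type and was at or below the floor in the knockout. It passed the filter through the wild-type array alone, so it could only be lower. Rab35, which returns cargo from early endosomes to the surface, was the highest member above the floor on both arrays, at 0.30 (880 and 1086). Rab10, reported in mouse macrophages to supply Toll-like receptor 4 to the surface, had a difference of -0.19 (2852 and 2499) with 3 of 3 probe sets lower. Rab14, which acts between Golgi and endosomes and on phagosomes, had one of -0.16 (6656 and 5966), with 5 of 7 probe sets lower and a range from -0.53 to 0.24. Rab8b had one of -0.22 (5041 and 4336), whereas Rab8a, Rab11a and Rab11b, the common carriers of exocytic and recycling traffic, lay at -0.03, -0.03 and 0.05. Rab4a, Rab17 and Rab25 were not measured; the last 2 are known from epithelial cells.

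Early endosomal Rabs split. All 6 were measured, 4 higher and 2 lower, with a median of 0.10, and none reached 1.5-fold. The lowest was Rab22a, which controls recycling from early endosomes and in mouse dendritic cells the supply of MHC class I for cross-presentation, with signals of 474 and 337 (1.41-fold lower). The other measured Rab22a probe sets gave -0.21 and 0.06, so only 2 of 3 were lower. Rab21, which takes up integrins, was lower by 0.31 on the log2 scale (1661 and 1344), and its second probe set was lower by 0.97 (213 and 109). The highest was Rab31, a close relative of Rab22a acting between Golgi and endosomes, at 508 and 673 (1.32-fold higher), with 2 of 2 probe sets higher but the second by 0.03 only. The 3 Rab5 genes, master regulators of early endosome fusion, had differences of 0.08 (Rab5a, 2016 and 2128), 0.24 (Rab5b, 144 and 169) and 0.13 (Rab5c, 915 and 1000), all within the probe set SD.

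Of the 9 secretory and granule Rabs 5 were measured, 2 higher and 3 lower, with a median of -0.04; Rab3b, Rab3c, Rab26 and Rab37 were not. Without the _x_at and _s_at probe sets, on which Rab27b and Rab3a rest, the median was -0.31. Rab44, a large Rab known from mast cells and osteoclasts, was the lowest (454 and 348, 1.31-fold lower). Rab27a, which docks secretory lysosomes and exosome-bearing bodies at the membrane, was lower by 0.31 on the log2 scale (482 and 388), and its other 3 probe sets were below the floor. Rab27b, which serves the same step in mast cells and platelets, was the highest (137 and 175, 1.27-fold higher) on a single _x_at probe set of 4. Rab3a and Rab3d, regulators of triggered exocytosis, had differences of -0.04 and 0.01; for Rab3d 2 of 4 probe sets were higher, ranging from -0.12 to 0.47.

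Mast cell and basophil markers differed in the same arrays: 5 of 6 measured markers were lower in the knockout, with summed normalized signals of 3246 (wild type) and 1836 (knockout). Most of that gap was Hdc, the histamine-making enzyme (2624 and 1411), while Kit, the stem cell factor receptor, differed little (134 and 130). Mcpt8, Cpa3 and Ms4a2 were at or below the floor in the knockout, and Fcer1a and Tpsb2 on both arrays. B and plasma cell markers were lower in 5 of 5 (summed signal 1621 and 438, with Mzb1, Ms4a1 and Cd79b at or below the floor in the knockout and Cd79a and Pax5 on both arrays). Granulocyte markers were lower in 5 of 7 with summed signals of 10331 and 12483 (Ltf was at or below the floor in the knockout, Cxcr2 on both arrays), and macrophage markers higher in 5 of 7 with 35337 and 35703. Dendritic cell markers were lower in 6 of 9, with summed signals of 32263 and 28695. T and NK cell markers were higher in 2 of 3 (475 and 372), with Cd4 at or below the floor in wild type and Cd3e, Cd3g and Ncr1 on both arrays. Mcpt8, Cpa3, Ms4a2, Mzb1, Ms4a1, Cd79b and Ltf passed the filter through the wild-type array alone, so they could only be lower. Cd4 and Flt3 passed it through the knockout array alone, so they could only be higher. The part of these cell types in the Rab differences was not tested.

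Rabs of the endoplasmic reticulum and Golgi carry newly made proteins including cytokines and MHC molecules. At the probe set used for each gene, they had the narrowest range of any compartment. Of 12 genes 11 were measured, 8 higher and 3 lower, with a median of 0.11 and a range from -0.33 to 0.20. None reached 1.5-fold. Over all measured probe sets of these genes, differences ran from -0.62 (Rab18) to 0.78 (Rab2a). Rab1a, which brings vesicles from the endoplasmic reticulum to the Golgi, had signals of 6910 and 7531, a difference of 0.12 with 2 of 3 probe sets higher. Rab6a, which returns cargo through the Golgi, had one of 0.13 (2336 and 2558), and its other probe sets were higher by 0.42 and 0.62. Rab33a, expressed in lymphoid and neural cells, was the highest (97.4 and 112, 1.15-fold higher). Rab2b, a Golgi Rab, was the lowest (157 and 125, 1.25-fold lower), with 4 of 5 probe sets lower. Rab43, whose human form acts in Golgi organisation, had a difference of 0.11 with 2 of 3 probe sets higher, from -0.44 to 0.48.

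At the probe set used, the remaining members of this compartment lay inside the probe set SD. They were Rab1b (0.02), Rab2a (0.09, with 4 of 4 probe sets higher), Rab18 (-0.03), Rab19 (0.15), Rab33b (-0.004) and Rab6b (0.19). Rab30 was not measured. Of the 6 ciliary and less studied Rabs 3 were measured, with a median of 0.15. Rab23, a regulator of Hedgehog signalling at the cilium, was the highest (183 and 242, 1.32-fold higher), with 3 of 3 probe sets higher. Rab28, known from photoreceptor cilia, was the lowest (475 and 409, 1.16-fold lower), with 2 of 2 lower. Rab40c, a Rab fused to a SOCS box that recruits ubiquitin ligases, had a difference of 0.15 at the probe set used and -0.17 at its other one. Rab39b, Rab40b and Rab42 were not measured.

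Closely related isoforms mostly differed little. In 10 numbered subfamilies at least 2 genes were measured, and in 5 of these the members differed in sign, mostly around 0. The widest gap was that of Rab27a and Rab27b, 0.66 on the log2 scale, followed by 0.42 for Rab2a and Rab2b and 0.30 for Rab7 and Rab7b, whose members were both higher. In the Rab3 (0.05), Rab6 (0.06), Rab11 (0.08), Rab1 (0.10), Rab8 (0.19) and Rab33 (0.20) pairs and among the 3 Rab5 genes (0.16) the gap stayed below the probe set SD. Rab27a and Rab27b were the only pair whose members lay beyond that SD on opposite sides of 0, and each rests on 1 measured probe set.

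The machinery that acts on Rabs had list medians close to that of all genes. Prenylation and GDI genes varied little: 7 of 8 were measured, 4 higher and 3 lower, with a median of 0.03. Gdi2, which extracts Rabs from membranes, had signals of 6560 and 6694, with 6 of 6 probe sets higher. The extremes were the subunit genes of the Rab geranylgeranyl transferase, Rabggta (-0.25, 227 and 190) and Rabggtb (0.28, 489 and 594), with the escort proteins Chml at 0.11 (178 and 192, 1 of 2 probe sets higher) and Chm at -0.04 (599 and 582) next to them. None passed 1.5-fold.

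Exchange factors had a median of 0.08, with 17 of 28 measured genes higher and 11 lower. Madd, which activates Rab3 and Rab27, was the only one at least 1.5-fold lower (298 and 177, 1.68-fold), and Rin2, which activates Rab5, the only one at least 1.5-fold higher (295 and 460, 1.56-fold). Among all measured genes 4.1% were that much lower and 4.57% that much higher, so 1 of 28 in each direction does not exceed the background. Dennd5a (-0.45, 3687 and 2704) and Dennd6a (0.50, 310 and 439) followed.

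GTPase-activating proteins had a median of 0.01, 17 of 33 higher. Past 1.5-fold were Evi5, active on Rab11 (460 and 738, 1.61-fold higher, 2 of 2 probe sets), Tbc1d24 (253 and 393, 1.55-fold higher, 2 of 3), Tbc1d22a (552 and 344, 1.61-fold lower on an _s_at probe set, the other being higher by 0.76) and Evi5l, reported to act on Rab23 (210 and 136, 1.55-fold lower). These 2 in each direction of 33 are near the same background shares.

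Under the reported setting, of the 4 lists only the effectors held genes past 2-fold, 2 of 38, both lower, beside 0.615% of all measured genes at least 2-fold lower. The effector median was -0.03, with 17 of 38 higher and 21 lower. Rilpl1, a relative of the Rab7 effector RILP that in human cells binds Rab8 and Rab10 after LRRK2 acts on them, had signals of 188 and 85.9 (2.19-fold lower, 1 probe set). Rab11fip1, a Rab11 effector of recycling endosomes, had signals of 498 and 248 (2.01-fold lower), with 2 of 2 probe sets lower, but -0.54 when both were averaged. With centring on the median Rilpl1 was at -1.05 and Rab11fip1 at -0.85. With scaling on hybridisation controls they were at -0.95 and -0.75, and without scaling at -0.62 and -0.42. Rilpl1 was not measured with a floor at the 75th percentile. Rab11fip5, another Rab11 effector, differed the other way (652 and 1019, 1.56-fold higher, 2 of 2). Its value came from an _s_at probe set, and it was not measured without _x_at and _s_at probe sets. Plekhm1, which joins Rab7 to lysosomal tethers, was at 0.53 (385 and 555). Eea1, the classic Rab5 tether, had a difference of 0.10 and Rilp itself one of -0.08. All of these differences are relative to the bulk of genes: without scaling the list medians lay between 0.51 and 0.63, beside 0.54 for all genes.

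**Figure D3:**
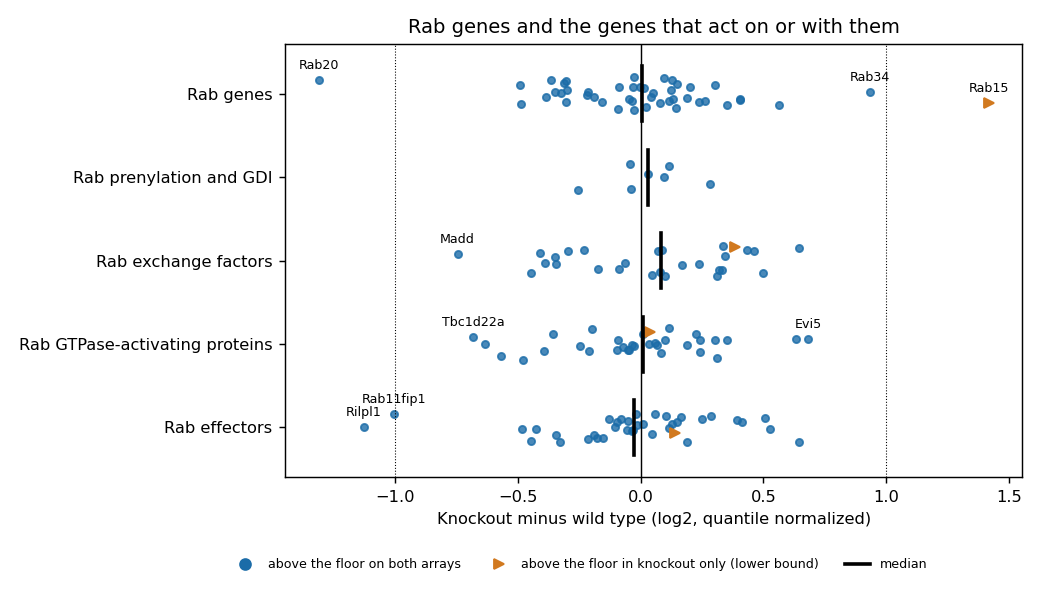
Knockout minus wild type (log2, quantile normalized) for measured Rab genes and for 4 lists of genes that act on or with Rabs; vertical bars are list medians, triangles lower bounds, vertical jitter has no meaning and dotted lines mark 2-fold. Medians lie between -0.03 and 0.08, and Rilpl1 (-1.13) and Rab11fip1 (-1.01) lie left of the 2-fold line, as does Rab20. With scaling on hybridisation controls Rilpl1 was at -0.95 and Rab11fip1 at -0.75, whereas Rab20 stayed past 2-fold at -1.05. Without scaling all medians move right by about the median of all genes in that setting, 0.54.

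Rab20 was the lowest Rab gene under every setting tried. Its difference was -1.15 with centring on the median, -1.05 with scaling on hybridisation controls and -1.31 with loess. It dropped below 2-fold only in the deposited values (-0.73), and there its distance from the median of all genes was still -1.26. Rab15 was past 2-fold wherever it was measured, from 1.42 to 2.36, and was not measured with a floor at the 75th percentile. Since Rab15 passed the filter through the knockout array alone, it could only be higher, and these settings do not check its direction. Rab34 passed 2-fold with centring on the median (1.01), with hybridisation controls (1.11) and in the deposited values (1.43), and dropped to 0.61 when its probe sets were averaged. Rab7b was past 1.5-fold with centring (0.74), with hybridisation controls (0.84) and without scaling (1.17), but averaging its 3 probe sets gave 0.14.

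**Figure D4:**
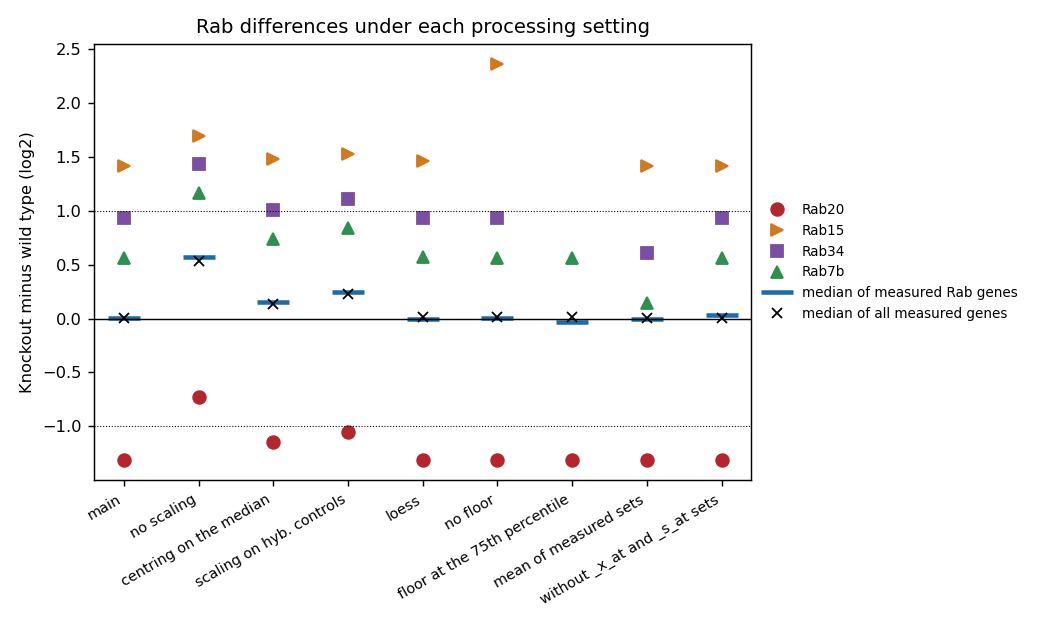
Knockout minus wild type (log2) of Rab20, Rab15, Rab34 and Rab7b and the medians of measured Rab genes and of all measured genes, under the reported setting (main) and each of 8 alternatives; dotted lines mark 2-fold. The Rab median tracks the median of all genes, and Rab20 lies between -1.31 and -0.73 throughout; Rab15 and Rab34 have no value with the floor at the 75th percentile.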

How the data were processed

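The authors deposited 1 table of linear signal intensity for 45101 probe sets on each of 2 Affymetrix arrays, made from 6 ug of total RNA per the labels' protocols; the sources used here do not give the algorithm, any scaling or detection calls, and background handling by that algorithm could change dim values most. Here 64 control probe sets were left out and the other 45037 were quantile normalized on the log2 scale, so an overall difference between the arrays, whatever its origin, is no longer seen. Values below the median (67.6) were set to it. Gene names came from the platform annotation, updated through gene identifiers (all 59 Rab genes matched the RefSeq table). Each gene took the probe set with the highest mean, chosen without regard to the difference. No p-value was computed. Named genes were the Rab members past 1.5-fold, the highest and lowest of each compartment, those whose probe sets disagreed in sign, and, of each regulator list, the 2 extremes on either side and all past 1.5-fold; others were added for their role. Members, compartments and lists were chosen with earlier results of these data known. Depth of an array is given by its median intensity, and the number of arrays limits the precision. The steps were tested on simulated data with less noise than the probe set SD. Changes were planted only in genes well above the floor on both arrays, so recovery of changes in dim genes was not tested. Python 3.11.15, numpy 2.4.6, pandas 2.3.3 and statsmodels 0.14.6 (loess, span 0.4) were used.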

Additional observations from a re-analysis of the deposited data

How the results depend on the processing

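The medians and counts, the 46 measured Rab genes and the regulator genes named were recomputed under 8 alternatives; marker sums, subfamily gaps and signal classes were not. A value was said to move where it shifted by at least the probe set SD of 0.29, or a count by over 1.5 times. Of 120 medians and counts so recomputed 99 did not move, and of the values of single Rab genes 305 did not and 53 did. Under the reported setting all compartment and list medians were smaller than this SD, so a median could change sign without counting as moved. With hybridisation controls the recycling median went from -0.16 to 0.06, late endosome and lysosome from -0.07 to 0.21 and secretion from -0.04 to 0.24. Among genes past 1.5-fold the sign changed for Tbc1d22a only, to 0.039 with probe sets averaged and 0.76 without _x_at and _s_at probe sets. Of the 9 regulator genes past 1.5-fold 5 stayed past it without scaling (not Evi5l, Madd, Rab11fip1 or Tbc1d22a), 7 with centring and 6 with hybridisation controls. Without scaling the Rab median was 0.57; the compartment medians were 0.71 (early endosome), 0.39 (recycling), 0.53 (late endosome and lysosome), 0.42 (secretion), 0.68 (endoplasmic reticulum and Golgi) and 0.74 (cilium and less studied); the list medians were 0.57 (prenylation and GDI), 0.63 (exchange factors), 0.51 (GTPase-activating proteins) and 0.52 (effectors); 22 Rab genes were higher by 1.5-fold or more and 4 by 2-fold or more, and 0 were lower by 2-fold. These shifts follow from the construction of that setting, since all genes shift by 0.54. At least 1.5-fold higher were 4 Rab genes with centring on the median and 5 with hybridisation controls. With the floor at the 75th percentile, which leaves 38 Rab genes measured, there were 0. At least 2-fold higher were 2, 2 and 0 in the same order. Of all measured genes 7.63%, 12.2% and 2.1% were at least 1.5-fold higher under these settings. At least 2-fold higher were 0.985%, 1.52% and 0.157% of all genes. Averaging probe sets gave 3 Rab genes at least 1.5-fold lower (Rab20, Rab21 and Rab36), beside 3.6% of all measured genes under that setting. The Rab36 average of -0.76 includes the probe set that passed the filter through the wild-type array alone and could only be lower. Rab38 was 0.05 and Rab14 0.24 without _x_at and _s_at probe sets. Values near the floor of 67.6, such as those of Rab15, Rab34, Rab36, Rab6b and Rab33a, limit what the dim genes can show. No paired analysis was possible because there is 1 array per genotype.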

Other observations

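For several Rab genes another, dimmer probe set differed by more than the one that represents the gene. For Rab21 it was -0.97 beside -0.31, and its signal was lower in the knockout also as deposited (176 and 128). For Rab36 it was at least 2.33-fold lower beside a difference of -0.30, again lower as deposited (131 and 59.3). This Rab36 probe set passed the filter through the wild-type array alone, so it could only be lower. For Rab18, which acts at the endoplasmic reticulum and lipid droplets, it was -0.62 (594 and 386) beside -0.03 (1369 and 1340). Differences in the other direction were found for Rab11b (0.61 beside 0.05), Rab2a (0.78 beside 0.09), Rab6a (0.62 beside 0.13) and Rab1a (0.44 beside 0.12). Whether these probe sets read different transcript ends was not tested. Rab20 has 1 probe set, so its value of -1.31 could not be compared in this way.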
